A study of Mus musculus with 3 samples.

Results

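The mRNA of 9 genes that carry glucose and lactate across the plasma membrane or decide the fate of pyruvate was measured in mouse dendritic cell cultures grown with little glutamine or with a glutamine antagonist. The genes were listed by symbol: the glucose transporters Slc2a1 and Slc2a3, the monocarboxylate transporters Slc16a1 and Slc16a3, the lactate dehydrogenase subunits Ldha and Ldhb, the pyruvate kinase Pkm, the pyruvate dehydrogenase kinase Pdk1 and the pyruvate dehydrogenase subunit Pdha1. They were chosen with earlier results of these data known. All 9 were found among the 32285 genes in the matrices. The cultures came from wild-type C57BL/6 mice and were grown in vitro in FLT3L, the cytokine that drives dendritic cell development, and were profiled with the 10x 3' assay, which counts transcript molecules (UMIs, unique molecular identifiers) in single cells. Each of 3 groups had 1 library. Control cells were kept in 2 mM glutamine, and the low-glutamine group had 50 µM. The DON group had the glutamine of the control plus 1 µM of 6-diazo-5-oxo-L-norleucine, a glutamine antagonist that inactivates enzymes which take their nitrogen from it. The cells were scraped from culture plates, and the number of mice or cultures behind each library is not given in the labels. No group had a second library, so differences between treatments have no replicate check and carry no test.

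Glucose enters cells through facilitative transporters of the Slc2a family and is broken down by glycolysis to pyruvate, with pyruvate kinase as the last step. Lactate dehydrogenase reduces pyruvate to lactate, which leaves or enters cells with a proton through Slc16a transporters. Pyruvate dehydrogenase instead feeds pyruvate to the mitochondrial tricarboxylic acid (TCA) cycle, and pyruvate dehydrogenase kinases switch that complex off. Activated dendritic cells are known for a rise in glycolysis, and Slc2a1, Slc16a3, Ldha, Pkm and Pdk1 are textbook targets of the hypoxia-inducible factor HIF.

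The libraries held 8962 to 10497 barcodes and 87611658 to 92002827 UMIs, and 8491 to 9749 cells per library were used, with a median of 6710 to 7950 UMIs. Pairs of libraries shared 20 to 31 barcodes. Each cell was assigned to a class by markers: at least 3 of 10 markers of a class with a UMI, more than for any other class, and at most 50% as many for the next class. The classes compared were type 1 conventional dendritic cells (cDC1; markers such as Xcr1 and Clec9a), type 2 (cDC2; Cd209a, Clec10a), plasmacytoid cells (pDC; Siglech, Ccr9) and progenitors (Mpo, Kit). In the order control, 50 µM glutamine and DON, the gate held 1120, 141 and 385 cDC1 cells, 1187, 1023 and 815 cDC2 cells, 2917, 2658 and 2841 pDC, and 261, 791 and 239 progenitors. The small number of cDC1 cells at 50 µM limits every value in that class. Between 33.6% and 41.8% of cells met no gate.

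Such a class is a range of marker counts, not a sharply bounded type. A cell had a median of 5 or 6 cDC1 markers in the cDC1 gate, 5 cDC2 markers in the cDC2 gate, 7 pDC markers in the pDC gate and 6 progenitor markers in the progenitor gate, and a median of at most 2 of any other class. Cells with exactly 3 markers, the fewest allowed, made up 6.07% to 8.05% of cDC1, 10.7% to 14.0% of cDC2, 1.72% to 2.90% of pDC and 1.90% to 6.13% of progenitors. Flt3, the receptor of the culture's cytokine, stood at 109, 118 and 102 CPM in cDC1, 66.0, 95.9 and 72.7 CPM in cDC2, 111, 157 and 123 CPM in pDC and 91.7, 112 and 74.7 CPM in progenitors. Cd74, the invariant chain of MHC class II, stood at 14851, 15296 and 11491 CPM in cDC1, 14471, 9130 and 11151 CPM in cDC2, 4134, 1963 and 2481 CPM in pDC, and 329.5, 133 and 146 CPM in progenitors. Zbtb46, a transcription factor of conventional dendritic cells, was at 24.4 to 48.9 CPM in cDC1 and cDC2, 7.69 to 8.85 CPM in pDC and 0.933 to 1.94 CPM in progenitors. Of 8 general dendritic genes, the number past 1.5-fold below control at 50 µM was 0 in cDC1, 3 in cDC2, 4 in pDC and 3 of the 7 measured in progenitors, and with DON it was 0, 0, 3 and 3. Of all genes, 2.33%, 1.27%, 2.72% and 1.52% were lower at 50 µM in that order, and 1.11%, 0.3%, 0.71% and 0.568% with DON. The genes of MHC class II (Cd74, H2-Aa and H2-Ab1) were among those lower in cDC2 at 50 µM and in pDC and progenitors under both treatments. CPM is the UMIs of a gene divided by all UMIs of the class in that library, times 1000000. Levels are therefore shares of the RNA counted, and a lower share of 1 gene cannot be told apart from a higher total of the others. Because the assay tags each transcript once at its 3' end, CPM was not scaled by gene length, and the tags do not separate the M1 and M2 splice forms of Pkm.

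Some signs of other cells moved with the libraries. In the cDC1 gate the summed level of the 10 cDC2 markers was 224, 440 and 283 CPM. In the progenitor gate the 10 neutrophil markers summed to 277, 271 and 2069 CPM and the 10 pDC markers to 227, 793 and 197 CPM. In the pDC gate the 10 progenitor markers summed to 163, 298 and 199 CPM, and in the mature dendritic cell gate the 10 neutrophil markers summed to 70.7, 414 and 117 CPM. Cycling cells, those with a UMI of at least 3 of 16 cell cycle genes, were 19.4%, 50.1% and 34.7% of pDC, 44.9%, 48.2% and 61.0% of cDC1, and 24.3%, 32.5% and 32.9% of cDC2, while progenitors were at 95.8%, 96.0% and 96.2%. The part of these shifts in the results was not tested. For cycling, some values in separated cells are given below, mostly for pDC.

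The sequences before the start sites of 4 of the genes are shown as examples, and the matches of the other genes are given below them. Slc16a3 and Slc2a1 were past 1.5-fold below control in all 4 classes under both treatments, Ldha was lower at 50 µM in pDC and progenitors, and Pdha1 was within 1.5-fold throughout; all 4 hold the core of the HIF binding site. They are the 250 bases before the RefSeq start on the gene's strand, read 5' to 3' (GRCm38.p6), with ACGTG and GCGTG on either strand in capitals. A sixth capital letter marks a match on both strands, CACGTG, which is also an E-box.

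Slc16a3 (chr11:120948817-120949066, plus strand): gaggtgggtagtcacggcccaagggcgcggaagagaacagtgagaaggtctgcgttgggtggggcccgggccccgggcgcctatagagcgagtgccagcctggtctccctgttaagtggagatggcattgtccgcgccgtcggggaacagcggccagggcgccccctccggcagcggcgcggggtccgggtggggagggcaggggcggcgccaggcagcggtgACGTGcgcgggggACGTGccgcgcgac
Slc2a1 (chr4:119108495-119108744, plus strand): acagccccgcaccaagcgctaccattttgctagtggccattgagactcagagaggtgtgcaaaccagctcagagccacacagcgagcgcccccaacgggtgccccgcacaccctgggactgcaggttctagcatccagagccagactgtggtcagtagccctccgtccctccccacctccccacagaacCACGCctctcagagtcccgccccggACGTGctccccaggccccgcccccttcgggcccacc
Ldha (chr7:46845554-46845803, plus strand): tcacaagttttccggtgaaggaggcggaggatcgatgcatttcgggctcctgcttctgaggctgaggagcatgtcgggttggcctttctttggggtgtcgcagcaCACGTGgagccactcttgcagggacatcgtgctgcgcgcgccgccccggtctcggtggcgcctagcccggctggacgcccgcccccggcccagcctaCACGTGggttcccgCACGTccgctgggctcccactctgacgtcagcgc
Pdha1 (chrX:160138431-160138680, minus strand): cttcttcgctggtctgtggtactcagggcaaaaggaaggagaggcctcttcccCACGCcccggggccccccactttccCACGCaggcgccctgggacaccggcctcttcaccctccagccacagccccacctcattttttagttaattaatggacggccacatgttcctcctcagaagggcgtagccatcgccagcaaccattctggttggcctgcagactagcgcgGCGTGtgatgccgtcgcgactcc

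In Slc16a3 both matches were ACGTG, and they began 27 and 14 bases before the start. Ldha had 3 matches to ACGTG at its first start site, 2 of them inside an E-box. Slc2a1 had 1 ACGTG and 1 GCGTG, and all 3 matches of Pdha1 were GCGTG. The second start site of Ldha had 1 GCGTG. Slc16a1, lower in none of the classes compared, had 3 matches, 1 of them CACGTG. Pkm had no match at its first start site and 1 ACGTG at its second. Pdk1 had 1 GCGTG at its first and no match at its second, and Ldhb had 1 GCGTG. Among 32851 mouse promoters of the same length, 38.6% held at least 1 match to either core and 13.5% at least 2, while 16.6% held ACGTG and 1.95% held it at least 2 times. A promoter was found for 8 of the 9 genes, all but Slc2a3. These matches are letters in a window and say nothing of binding in these cells.

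The members differed widely in level, and Ldha and Pkm were far above the others in the 4 classes compared. In control cDC1, cDC2, pDC and progenitors, Pkm stood at 503, 491, 514 and 724 CPM and Ldha at 589, 421, 325 and 858 CPM. The other 7 members reached at most 83.0 CPM in these control classes. Both genes, like Pgk1, have processed pseudogene copies in the mouse genome. How reads that fit several copies were counted is not given in the sources used here, so their levels are uncertain to that extent.

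**Figure D1:**
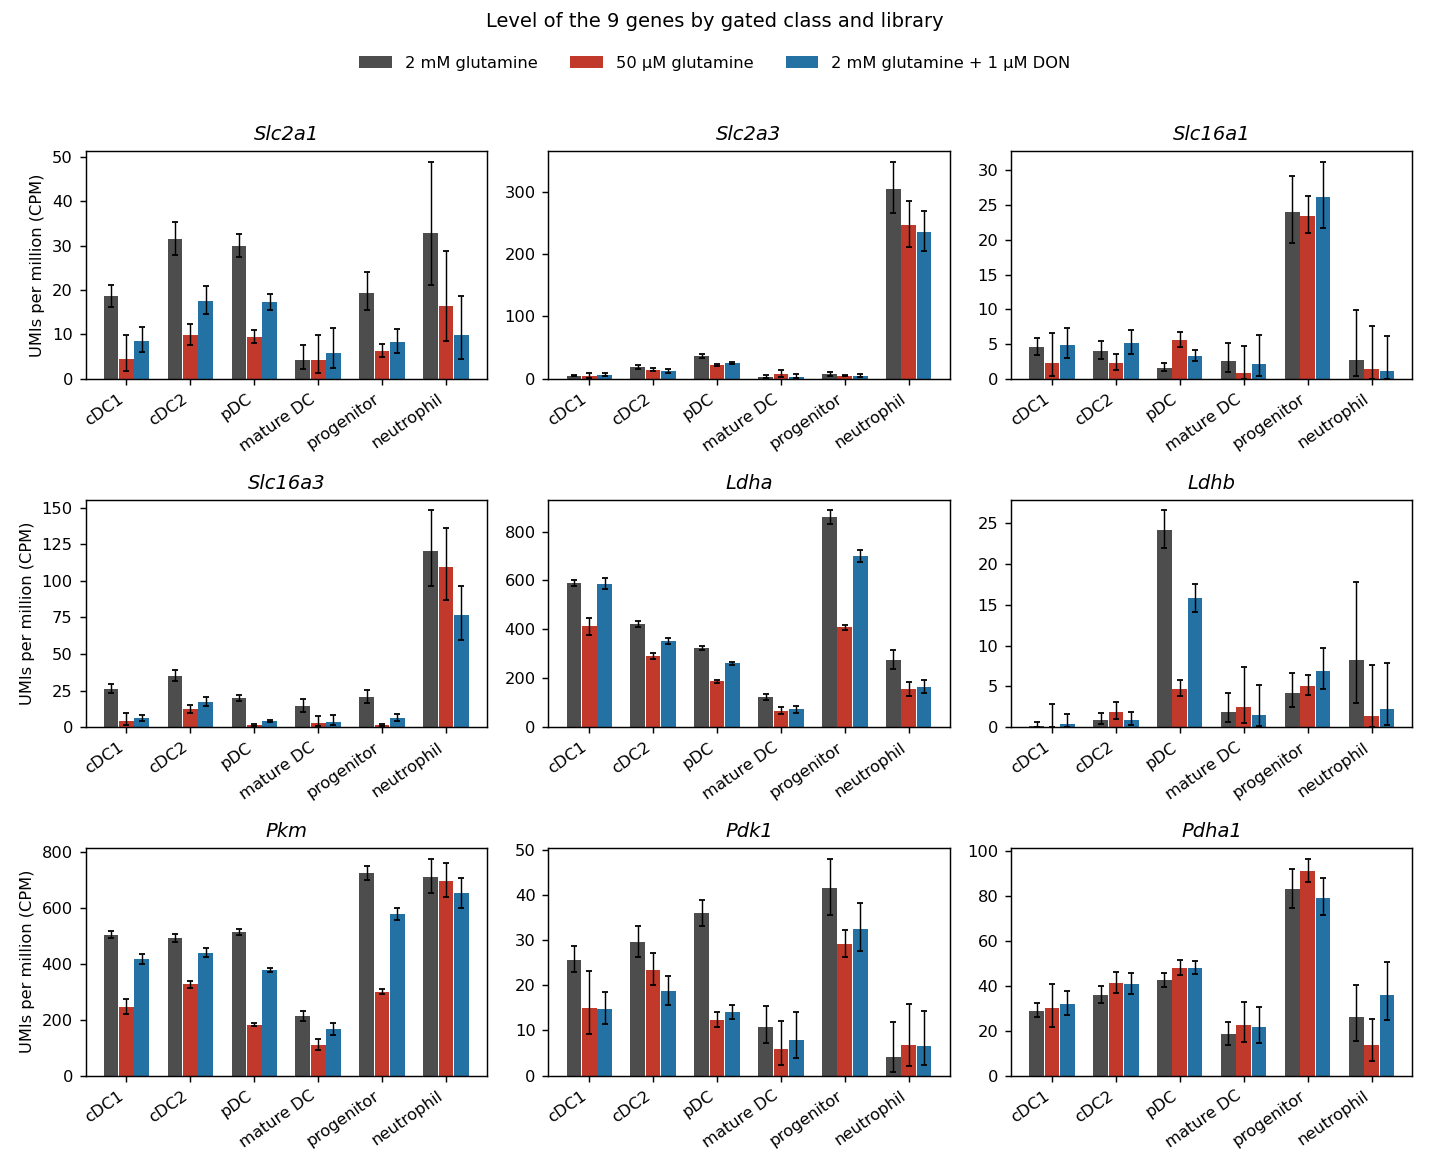
Level in CPM (y axes, linear from 0 and different in each panel) of the 9 genes in 6 gated classes (x axes) for the 3 libraries. Bars are single libraries and error bars are exact 95% Poisson intervals, which cover counting error only; Slc2a1 and Slc16a3 are highest in the control bar of cDC1, cDC2, pDC and progenitors, Slc2a3 stands out in neutrophils, Ldhb in pDC, and Slc16a1 in progenitors.

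Class differences were tested over the 3 libraries with edgeR's quasi-likelihood test, with the library as a block and Benjamini-Hochberg adjustment over 11602 genes. Class folds are edgeR estimates after the sums were scaled by trimmed means (TMM), so they can differ from ratios of the printed CPM. Many genes differ between such classes. The share of all genes past an adjusted p of 0.05 was 34.8% for cDC1 against cDC2, 49.3% for pDC against cDC2, 53.3% for pDC against cDC1, 65.2% for progenitors against cDC2, 57.6% for progenitors against cDC1 and 66.8% for progenitors against pDC. Of the 9 members, 3, 5, 7, 7, 4 and 8 passed in that order. Against these backgrounds the counts are not a result about the members, and the interest lies in which gene was high where. The 3 libraries were treated differently, and the spread of a gene was estimated over all 4 classes together. P-values set a class difference against that shared spread and do not measure how steady the single pair was across treatments.

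Glucose transporters came first in the pathway, and they were distributed differently. Slc2a1, the widely expressed basal glucose transporter (chr4:119108711-119137983, GRCm38, the build of all positions here), was measured at 18.6, 4.52 and 8.55 CPM in cDC1, at 31.4, 9.75 and 17.6 CPM in cDC2, at 29.97, 9.42 and 17.2 CPM in pDC and at 19.4, 6.22 and 8.20 CPM in progenitors, for control, 50 µM and DON. In each library cDC2 and pDC were above cDC1 and progenitors. Slc2a1 was 1.67-fold higher in cDC2 than in cDC1 (edgeR adjusted p = 0.00129) and 1.42-fold higher in pDC than in cDC1 (edgeR adjusted p = 0.00585). The second of these was not called without the DON library (log2 0.40, edgeR adjusted p = 0.0958), and both were not called when cells were gated on UMIs thinned to 2000 a cell. The pDC and cDC2 levels were not separated (edgeR adjusted p = 0.114).

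Slc2a3, a high-affinity glucose transporter (chr6:122727809-122801640), had its dendritic maximum in pDC. It was counted at 36.3, 22.1 and 25.4 CPM in pDC, 19.0, 14.8 and 12.0 CPM in cDC2, 4.85, 4.52 and 6.79 CPM in cDC1, and 7.23, 4.99 and 5.18 CPM in progenitors. The order pDC, cDC2 and then the other 2 classes held in all 3 libraries. The pDC level was 1.60-fold that of cDC2 (edgeR adjusted p = 0.00137) and 4.52-fold that of cDC1 (edgeR adjusted p = 7.28e-07), and cDC2 was 2.82-fold above cDC1 (edgeR adjusted p = 0.000128). These 3 calls were lost when no limit was set on the next class. Neutrophils held far more of this transporter, at 305, 246 and 235 CPM, and the share of Slc2a3 among UMIs of both transporters was 90.3% to 96.0% there, against 54.8% to 70.2% in pDC.

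Among lactate carriers, progenitors stood apart for Slc16a1, and cDC2 held the most Slc16a3 of the 4 classes. Slc16a1 (MCT1; chr3:104638668-104658462), the carrier found in most tissues, stood at 24.0, 23.5 and 26.1 CPM in progenitors, against 1.58 to 5.52 CPM in cDC1, cDC2 and pDC in all libraries. The ranges do not overlap, and the progenitor level was 4.52-fold above cDC1 (edgeR adjusted p = 0.000177), 6.03-fold above cDC2 (edgeR adjusted p = 1.34e-05) and 7.62-fold above pDC (edgeR adjusted p = 1.44e-06). Nearly all progenitors were cycling. In control, cycling cells held 24.5 CPM in progenitors, 6.58 CPM in cDC1, 8.57 CPM in cDC2 and 3.28 CPM in pDC. Cells that were not cycling held 2.01, 1.61 and 0.934 CPM in cDC1, cDC2 and pDC. The part of cycling in these class folds was not tested. Slc16a3 (MCT4; chr11:120948480-120960868), a low-affinity carrier linked to lactate export from glycolytic cells, was counted at 26.2, 4.52 and 5.92 CPM in cDC1, 34.9, 12.1 and 17.3 CPM in cDC2, 20.1, 1.35 and 4.01 CPM in pDC, and 20.8, 1.38 and 6.47 CPM in progenitors. In every library cDC2 was the highest of these 4 classes, 3.73-fold above pDC (edgeR adjusted p = 0.000209) and 3.15-fold above progenitors (edgeR adjusted p = 0.00128) in the fit over all libraries. In the control library alone cDC2 was closer to both, at 34.9 CPM against 20.1 CPM in pDC and 20.8 CPM in progenitors. Its difference from cDC1 did not pass (1.94-fold, edgeR adjusted p = 0.0558), and pDC were 1.93-fold below cDC1 (edgeR adjusted p = 0.0377). That last call was lost without the control library (log2 -1.11, edgeR adjusted p = 0.0838) and without the DON library (log2 -1.01, edgeR adjusted p = 0.136). Neutrophils were higher still, at 120, 109 and 76.6 CPM.

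Ldhb, the heart-type subunit of lactate dehydrogenase (chr6:142490249-142507957), was a pDC gene among the dendritic classes. It had 428, 87 and 346 UMIs in pDC (24.2, 4.71 and 15.8 CPM), 8, 14 and 6 UMIs in cDC2 (0.855, 1.84 and 0.830 CPM) and 2, 0 and 2 UMIs in cDC1. The pDC level was 10.5-fold that of cDC2 (edgeR adjusted p = 0.000100), and no fold is given against cDC1, where counts were near 0. After thinning each cell to 2000 UMIs, 4.85% of control pDC held an Ldhb UMI (95% Clopper-Pearson interval 4.10% to 5.70%), against 0 of 1119 control cDC1 cells, whose interval reaches 0.329%. Before thinning the shares were 11.1% and 0.179%, at median depths of 5397 and 9491 UMIs. Progenitors held 4.20, 5.07 and 6.91 CPM of Ldhb, 5.05-fold above cDC2 (edgeR adjusted p = 0.00479) and 2.07-fold below pDC (edgeR adjusted p = 0.0319). The first was not called without the DON library (edgeR adjusted p = 0.0635), and the second was called neither without it (edgeR adjusted p = 0.162) nor without the control library (edgeR adjusted p = 0.319).

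Ldha, the muscle-type subunit that favours lactate formation (chr7:46841475-46855627), supplied nearly all lactate dehydrogenase UMIs elsewhere. Its share of both subunits was at least 99.9% in cDC1 and 99.4% to 99.8% in cDC2, and it was 93.1% in control pDC (Clopper-Pearson interval 92.4% to 93.7%), 97.6% at 50 µM (97.0% to 98.0%) and 94.3% with DON (93.7% to 94.9%). Ldha itself ran from progenitors and cDC1 down to pDC, with 858, 408 and 698 CPM in progenitors, 589, 412 and 587 CPM in cDC1, 421, 291 and 353 CPM in cDC2, and 325, 188 and 261 CPM in pDC. The step from cDC2 to cDC1 was 1.63-fold (edgeR adjusted p = 5.46e-05) and that from pDC to cDC2 1.58-fold (edgeR adjusted p = 3.02e-05), whereas progenitors and cDC1 were not separated (1.04-fold, edgeR adjusted p = 0.653). Mature dendritic cells, gated on Ccr7, Fscn1 and Ccl22, held less of it, at 122, 66.4 and 72.6 CPM.

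At the pyruvate step, Pkm was lower in pDC than in cDC2 over the 3 libraries, and Pdha1 was highest in progenitors. Pkm, which forms pyruvate from phosphoenolpyruvate (chr9:59656368-59679375), stood at 503, 245 and 416 CPM in cDC1, 491, 326 and 439 CPM in cDC2, 514, 182 and 377 CPM in pDC, and 724, 299.9 and 577 CPM in progenitors. The pDC level was 1.42-fold below cDC2 (edgeR adjusted p = 0.00341), but in the control library alone pDC were not below the other dendritic classes. Pdha1, the catalytic E1 alpha subunit of pyruvate dehydrogenase (chrX:160122209-160138413), stood at 83.0, 91.3 and 79.4 CPM in progenitors, 42.7, 48.1 and 48.0 CPM in pDC, 36.0, 41.2 and 40.9 CPM in cDC2, and 29.0, 30.1 and 32.0 CPM in cDC1. The order of the 4 classes was the same in each library. Progenitors were 1.96-fold above pDC (edgeR adjusted p = 1.48e-07), 2.04-fold above cDC2 (edgeR adjusted p = 1.49e-07) and 2.38-fold above cDC1 (edgeR adjusted p = 7.56e-08). Pdk1, a kinase that inhibits this enzyme (chr2:71873224-71903858), stood at 41.5, 29.2 and 32.6 CPM in progenitors, 36.0, 12.4 and 14.0 CPM in pDC, 29.6, 23.5 and 18.7 CPM in cDC2 and 25.7, 15.1 and 14.7 CPM in cDC1. It was 1.92-fold higher in progenitors than in pDC (edgeR adjusted p = 0.000692) and did not pass between any 2 of cDC1, cDC2 and pDC. In the control library alone, progenitors and pDC were closer, at 41.5 and 36.0 CPM.

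**Figure D2:**
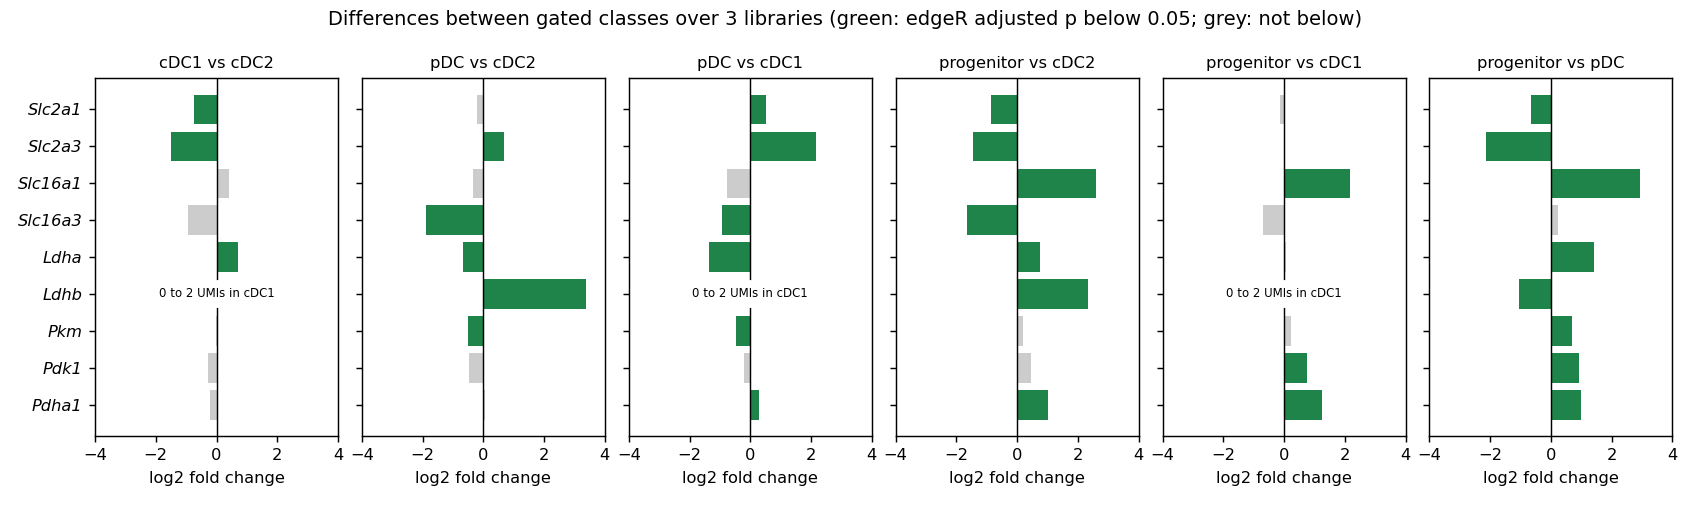
Log2 fold change of each gene (rows) for the 6 pairs of gated classes (panels; positive is higher in the class named first), fitted over 3 libraries. Green bars passed an edgeR adjusted p of 0.05 and grey bars did not; no bar is drawn for Ldhb against cDC1, where it had 0 to 2 UMIs a library, and the long green bars are Ldhb in pDC, Slc16a1 in progenitors and Slc2a3 in pDC against cDC1 and progenitors.

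At 50 µM glutamine, the carriers Slc2a1 and Slc16a3 were lower than in control in all 4 classes, and Pkm was past the threshold in 3 of them. A member was counted when its CPM, with 5 CPM added to both sides, differed at least 1.5-fold and reached 5 CPM in at least 1 of the 2 libraries. All folds between treatments are on that scale, which understates differences of low genes. The members were chosen with earlier results of these data known. An excess over the share of all genes is therefore not independent evidence. In cDC1, 4 of 6 members that reached 5 CPM were lower, against 2.33% of all genes. In cDC2, 2 of 7 were lower (all genes 1.27%), in pDC 7 of 9 (all genes 2.72%) and in progenitors 4 of 9 (all genes 1.52%). A single member was higher, Slc16a1 in pDC, where 7.86% of all genes were. None was higher in cDC1, cDC2 or progenitors, where 3.99%, 4.46% and 2.59% of all genes were. The median log2 ratio of all genes at 50 µM was 0.06 in cDC1, 0.15 in cDC2, 0.14 in pDC and 0.05 in progenitors, and that of the members was -0.82, -0.53, -1.24 and -0.44.

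Slc16a3 was among the lowest genes of the whole comparison. Its level went from 26.2 CPM (95% Poisson interval 23.4 to 29.3) to 4.52 CPM (1.66 to 9.83, 6 UMIs) in cDC1, from 34.9 to 12.1 CPM in cDC2, from 20.1 to 1.35 CPM in pDC and from 20.8 to 1.38 CPM in progenitors. The log2 ratios were -1.71, -1.22, -1.98 and -2.01. Only 0.0426% of the genes measured in pDC and 0.0220% of those in progenitors were as low or lower. The intervals of the 2 libraries did not overlap in any of the 4 classes. They also did not overlap for Ldha and Pkm in cDC2, which were within 1.5-fold. The share of all genes with intervals apart was not taken. Slc16a1 stood at 5.52 against 1.58 CPM in pDC and at 23.5 against 24.0 CPM in progenitors. The share of Slc16a3 among UMIs of both carriers went from 92.7% to 19.7% in pDC and from 46.4% to 5.56% in progenitors.

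Slc2a1 was lower by a similar factor in every class, 2.48-fold in cDC1 (6 UMIs at 50 µM), 2.47-fold in cDC2, 2.43-fold in pDC and 2.17-fold in progenitors. Slc2a3 was within 1.5-fold in 3 classes, with log2 ratios of -0.05 in cDC1, -0.28 in cDC2 and -0.29 in progenitors, and was 1.52-fold lower in pDC. That last value differed from the values in separated cells: Slc2a3 in control pDC was 18.5 CPM in cycling and 43.1 CPM in other cells, and the log2 ratio was -0.20 within cycling and -0.31 within other pDC. In cDC1 its ratio also rested on few UMIs (59 and 6) and turned to 1.69 when no limit was set on the next class.

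The pDC showed the broadest set of lower genes in this pathway. Pkm went from 514 to 182 CPM (log2 ratio -1.47), Ldhb from 24.2 to 4.71 CPM (-1.59), Pdk1 from 36.0 to 12.4 CPM (-1.24) and Ldha from 325 to 188 CPM (-0.77). None of these intervals overlapped, a trait not counted over all genes. Because 50.1% of pDC were cycling at 50 µM against 19.4% in control, the same ratios were taken in both kinds of cell. In pDC that were not cycling, Pkm was at -1.36, Ldhb at -1.36, Pdk1 at -1.03, Ldha at -0.79, Slc2a1 at -1.19 and Slc16a3 at -1.90. In cycling pDC, Pkm was at -1.69, Pdk1 at -1.16, Ldha at -1.10, Slc2a1 at -1.17 and Slc16a3 at -2.33, while Ldhb, at -0.57, was within 1.5-fold. Ldhb was mainly a gene of pDC that were not cycling, at 31.1 CPM against 5.74 CPM in cycling pDC of control. The higher Slc16a1 of pDC, 5.52 against 1.58 CPM, was at a log2 ratio of 0.61 in cycling and 0.19 in other pDC. Progenitors hold the most Slc16a1, and their markers summed to 163 CPM in control pDC and 298 CPM at 50 µM. The part of that shift in the Slc16a1 value was not tested.

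In the other classes Pkm, Ldha and Pdk1 were lower by uneven amounts. These were smaller than in pDC, except for Ldha in progenitors. Pkm was lower in cDC1 (503 and 245 CPM, -1.02) and progenitors (724 and 299.9 CPM, -1.26), and in cDC2 it lay just inside the threshold (491 and 326 CPM, -0.58). Ldha was 2.09-fold lower in progenitors (858 and 408 CPM) and within 1.5-fold in cDC1 (-0.51) and cDC2 (-0.53). In cycling cDC2, Pkm (-0.82) and Ldha (-0.77) were past 1.5-fold, and in other cDC2 they were within it (-0.44 and -0.40). Ldha was at -0.61 in cycling cDC1 and at -0.38 in other cDC1. Pdk1 was 1.53-fold lower in cDC1 (25.7 and 15.1 CPM, 20 UMIs at 50 µM), with overlapping intervals, and within the threshold in cDC2 and progenitors. Ldhb was not lower in cDC2 (0.23, at 0.855 and 1.84 CPM) or progenitors (0.13). Pdha1 was not lower in any class, with log2 ratios between 0.05 and 0.17 in the 4 classes.

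**Figure D3:**
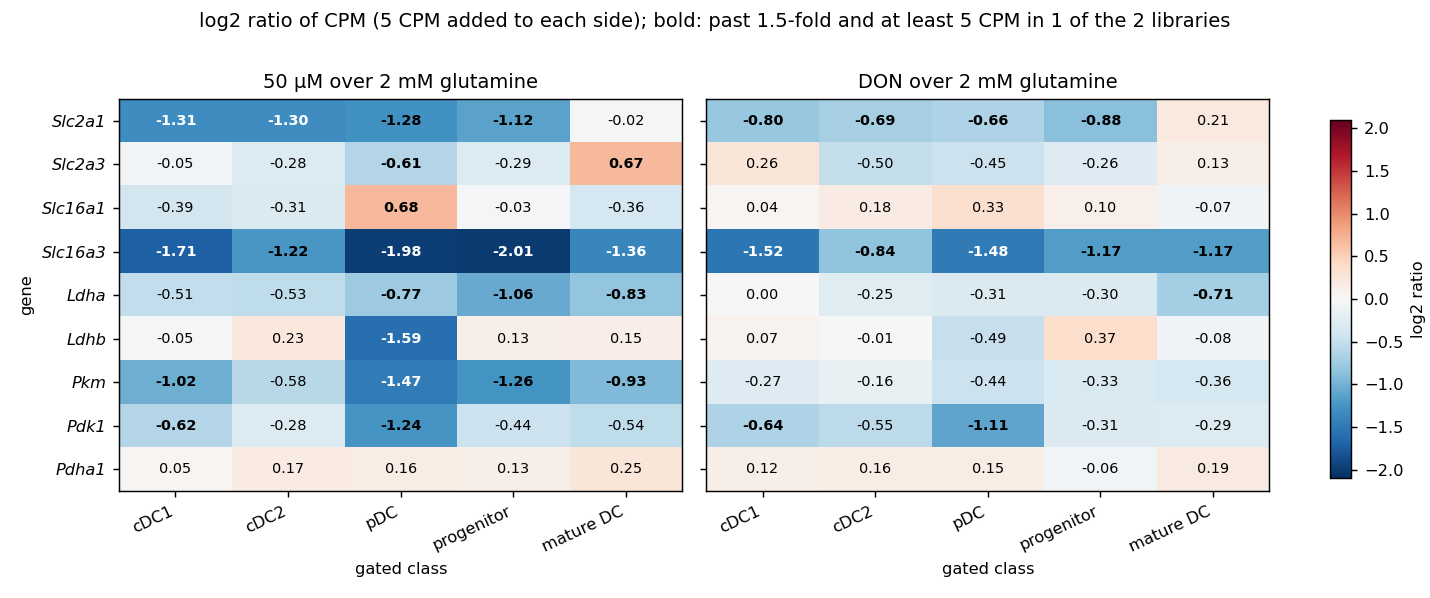
Log2 ratio of treated over control CPM (colour and printed value) for the 9 genes (rows) and 5 gated classes (columns), with 50 µM glutamine at left and DON at right, both against the same control library. Bold values are past 1.5-fold with at least 5 CPM in 1 of the 2 libraries; the rows of Slc2a1 and Slc16a3 are blue in cDC1, cDC2, pDC and progenitors under both treatments, and the Pdha1 row is near 0.

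With DON at full glutamine, Slc2a1 and Slc16a3 were past 1.5-fold below control in all 4 classes, and Pkm and Ldha were within it. With a pseudocount of 20 CPM in place of 5 CPM, Slc2a1 was within 1.5-fold in all 4 classes (log2 ratios -0.43, -0.45, -0.43 and -0.48 in cDC1, cDC2, pDC and progenitors), as was Slc16a3 in cDC2 (-0.56). Slc2a1 in progenitors was also within it when cells were gated on thinned UMIs (-0.49). Members lower were 3 of 7 in cDC1 (all genes 1.11%), 2 of 8 in cDC2 (all genes 0.3%), 3 of 8 in pDC (all genes 0.71%) and 2 of 9 in progenitors (all genes 0.568%), and none was higher, against 0.513%, 0.478%, 1.52% and 0.401% of all genes in that order. The choice of the members with earlier results known limits these counts as well. Both treatments were compared with the same control library, so their ratios share its error and the 2 sets are not independent. The difference between the treatments was not tested. The median log2 ratio of the members was -0.27, -0.37, -0.47 and -0.30 in cDC1, cDC2, pDC and progenitors, and that of all genes 0.07, 0.06, 0.03 and 0.02.

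Slc16a3 stood at 5.92 CPM in cDC1, 17.3 CPM in cDC2, 4.01 CPM in pDC and 6.47 CPM in progenitors with DON, with log2 ratios of -1.52, -0.84, -1.48 and -1.17. Slc2a1 had log2 ratios of -0.80, -0.69, -0.66 and -0.88 in the same order. Pdk1 was past the threshold in cDC1 (14.7 CPM, -0.64) and pDC (14.0 CPM, -1.11), and at -0.55 in cDC2. The intervals of control and DON did not overlap for Slc16a3, Slc2a1 or these 2 values of Pdk1. They also did not overlap for some values within 1.5-fold, among them Pdk1 in cDC2 and Pkm in every class compared. The share of all genes with intervals apart was not taken.

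Pkm and Ldha, which carry the largest levels, were within 1.5-fold of control in all 4 classes with DON. The log2 ratios of Pkm ran from -0.44 in pDC to -0.16 in cDC2. Ldha was at -0.31 in pDC, -0.30 in progenitors and -0.25 in cDC2, and at 589 and 587 CPM in cDC1. Ldhb in pDC was at 15.8 against 24.2 CPM (-0.49). Pdha1 was between -0.06 and 0.16. In pDC that were not cycling, Slc16a3 was at -1.52, Pdk1 at -1.01, Slc2a1 at -0.65 and Ldhb at -0.24. In cycling pDC, Slc16a3 was at -1.67, Pdk1 at -1.07, Slc2a1 at -0.54 and Ldhb at -0.13. Slc2a1 in cDC2 was at -1.07 in cells with a Cd209a UMI and at -0.38 in cells without one.

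Mature dendritic cells, with 434, 198 and 188 cells, followed in part. At 50 µM, 3 of 6 members were lower (all genes 4.66%) and 1, Slc2a3, was higher on 8 and 9 UMIs, with overlapping intervals (all genes 8.6%). Neutrophils hold the most Slc2a3, and their markers summed to 70.7 CPM in control mature cells and 414 CPM at 50 µM. The part of that shift in the Slc2a3 value was not tested. Pkm went from 213 to 109 CPM and Ldha from 122 to 66.4 CPM. With DON 2 of 6 were lower (all genes 4.5%), Slc16a3 and Ldha, the latter at 72.6 CPM, and none was higher (all genes 3.3%). Slc2a1 was low in this class in every library, at 4.31, 4.20 and 5.75 CPM.

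Other genes of the pathway were counted by step, and glycolytic enzymes held most of the lower genes at 50 µM. The lists were chosen with earlier results of these data known, so their direction is not independent evidence. Of 17 glycolytic enzymes, 11 of 15 measured were lower at 50 µM in cDC1, 7 of 17 in cDC2, 11 of 14 in pDC and 7 of 15 in progenitors. The shares of all genes were 2.33%, 1.27%, 2.72% and 1.52% in that order. The 1 higher was Hk3 in cDC2 (a hexokinase, 3.20 and 9.62 CPM), where 4.46% of all genes were. List medians were -0.77, -0.49, -0.78 and -0.54. With DON 1 of 15, 0 of 15, 5 of 14 and 1 of 15 were lower (all genes 1.11%, 0.3%, 0.71% and 0.568%), with medians of -0.34, -0.25, -0.43 and -0.31. Pgk1, phosphoglycerate kinase, went from 454 to 127 CPM at 50 µM and to 302 CPM with DON in pDC. Aldoc, an aldolase, went from 74.1 to 10.7 and 48.0 CPM in cDC2, and Aldoa, the main aldolase, from 700 to 232 and 510 CPM in cDC1.

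Downstream of pyruvate, no gene of 2 lists was lower in these 4 classes under either treatment. Only 0.3% to 2.72% of all genes were lower in these comparisons, so an absence in lists of this size is near that share. The first held 15 TCA cycle enzymes, with medians between -0.01 and 0.18. The second held 20 other pyruvate genes (mitochondrial carriers, other subunits of pyruvate dehydrogenase, its other kinases and phosphatases, transaminases), with medians between -0.04 and 0.16. Mpc1, a subunit of the mitochondrial pyruvate carrier, stood at 251, 247 and 255 CPM in pDC, and Pdk3, a kinase more abundant than Pdk1 in cDC2, at 124, 119 and 127 CPM there. The list's higher genes at 50 µM were Gpt2, an alanine transaminase, in progenitors (0.933 and 14.1 CPM) and cDC1 (1.40 and 5.27 CPM), and Pdp1, a pyruvate dehydrogenase phosphatase, in cDC1 (4.19 and 9.04 CPM).

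Of 14 other transport genes, Emb and Bsg, chaperones of the lactate carriers, differed in direction in pDC at 50 µM, with Emb at 38.9 and 62.9 CPM (0.63) and Bsg at 325 and 235 CPM (-0.46). Slc16a6, another member of the carrier family, was higher in cDC2, pDC and progenitors at 50 µM (log2 ratios 0.70, 0.60 and 0.84), and Slc16a10, an aromatic amino acid carrier of that family, in pDC. Txnip, which restrains glucose uptake, was lower in pDC at 50 µM (244 and 147 CPM), and so was the transporter Slc2a6 (16.2 and 8.39 CPM). In this list 2 were lower and 3 higher of 7 measured in pDC at 50 µM (all genes 2.72% and 7.86%). None was lower in the other 3 classes at 50 µM, where 2.33%, 1.27% and 1.52% of all genes were (cDC1, cDC2 and progenitors). With DON, 1 of 7 measured was lower in progenitors, Txnip (87.5 and 55.9 CPM), where 0.568% of all genes were. None was lower with DON in cDC1, cDC2 or pDC, where 1.11%, 0.3% and 0.71% of all genes were.

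HIF targets that have no part in glycolysis were lower in 3 of 11, 4 of 12, 4 of 12 and 5 of 13 measured in cDC1, cDC2, pDC and progenitors at 50 µM, and in the same numbers with DON. The shares of all genes were 2.33%, 1.27%, 2.72% and 1.52% at 50 µM and 1.11%, 0.3%, 0.71% and 0.568% with DON. Vegfa, a vascular growth factor, was the 1 target higher, in progenitors at 50 µM (log2 ratio 0.91), where 2.59% of all genes were. Ankrd37, a sensitive HIF target, was at 120 CPM in control pDC, 4.22 CPM at 50 µM and 36.0 CPM with DON. Bnip3, a mitophagy receptor, was at 29.3, 9.04 and 9.42 CPM in cDC1, and P4ha1, a collagen prolyl hydroxylase subunit, at 44.0, 17.1 and 21.3 CPM in cDC2. The median of the list lay between -0.43 and -0.21. Hif1a mRNA itself had log2 ratios between -0.12 and 0.32 over the 4 classes and both treatments. Among regulators at 50 µM, 1 of 10 measured was higher in cDC1, 0 of 10 in cDC2, 2 of 10 in pDC and 1 of 10 in progenitors. The shares of all genes were 3.99%, 4.46%, 7.86% and 2.59% in that order, and no regulator was lower. Myc, which also drives glycolytic genes, was higher in pDC (4.12 and 10.3 CPM) and progenitors (62.5 and 100.4 CPM). Ptbp1, a splicing factor of Pkm, was higher in pDC (83.8 and 136 CPM), and Hif1an in cDC1 (13.5 and 25.6 CPM).

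**Figure D4:**
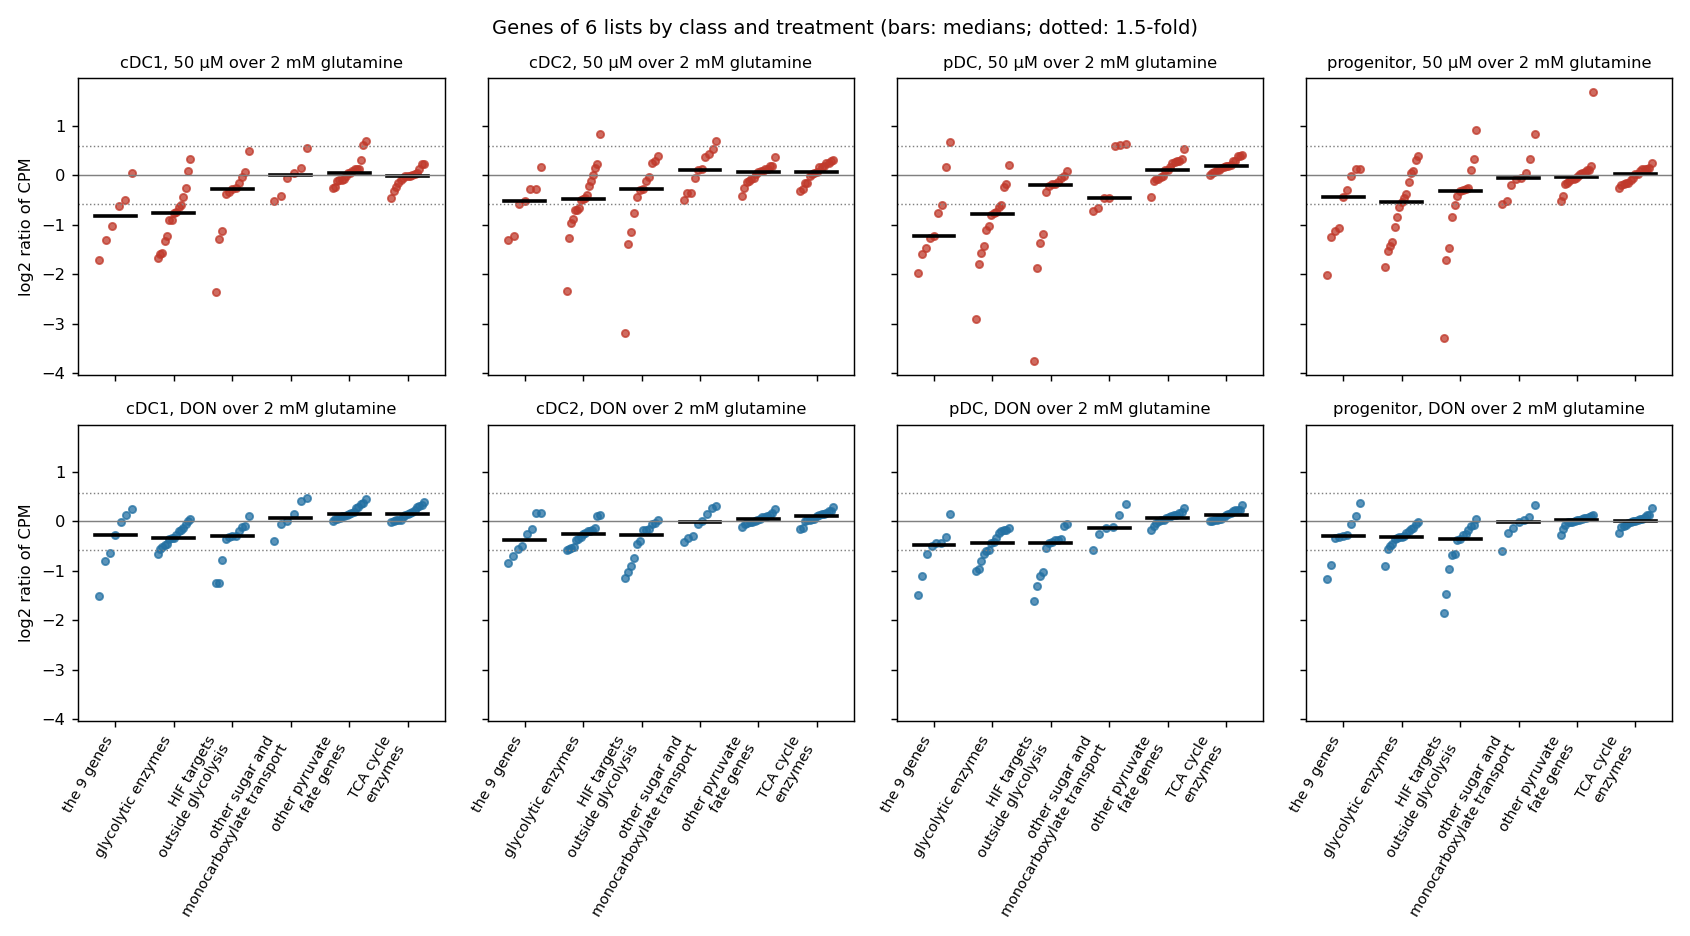
Log2 ratio of treated over control CPM (y axes) of single genes (points) in 6 lists (x axes), by class (columns) and treatment (rows), for genes of at least 5 CPM in 1 of the 2 libraries. Black bars are list medians and dotted lines mark 1.5-fold; points of glycolytic enzymes lie mostly below 0 at 50 µM, single HIF targets lie far below, and the points of TCA cycle enzymes stay within the dotted lines.

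The genes whose level was most like each member over 24 sums of a class and a library are given as a description. The points share libraries and classes, and 5736 genes were candidates. Slc2a1 was closest to P4ha1 (Pearson r 0.83), Narf (0.82) and Ankrd37 (0.78), and Slc16a3 to F10 (0.84), Bnip3 (0.84) and Ccl6 (0.83). Pkm was closest to the glycolytic enzymes Pgam1 (0.92), Gpi1 (0.92) and Eno1 (0.88), and Pdk1 to Nup50 (0.83), Tpi1 (0.83) and Wdr61 (0.82). Ldhb was closest to Cd28 (0.82), Slc49a4 (0.79) and Tns1 (0.78), and Slc2a3 to Sorl1 (0.95), Prdx5 (0.92) and Adpgk (0.92). Slc16a1 was closest to Prtn3 (0.87), a progenitor marker used in the gate, Egfl7 (0.86), also in the gate, and Nme4 (0.86). Ldha was close to Hprt (0.86) and Ccdc115 (0.85), and Pdha1 to Etfb (0.89), Cux1 (0.88) and Metrn (0.88).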

How the data were processed

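Single-cell RNA of 3 libraries was analysed. The deposited matrices hold UMI counts per gene and barcode, made with Cell Ranger 6.0.0 per the file headers and Cell Ranger 3.1.0 on mm10 per the submitters' processing notes. Which version made the deposited counts was not settled. No column went unused for want of a sample (0).

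From the counts, cells with at least 1000 UMIs, 500 genes and at most 10% mitochondrial UMIs were kept. Doublets were scored by simulation (2 per cell, 2000 variable genes, 30 components, expected rate 0.08, seed 1) and cells above 0.25 removed, 4.41% to 5.96% of a library; that threshold was set after the automatic one failed in the DON library. UMIs were summed by gated class and library, and treatments were compared as log2 of CPM + 5, untested. Intervals are 95% Poisson or Clopper-Pearson and cover counting error only. Class tests used edgeR 4.0.16 (R 4.3.3) on 12 sums with the library as a block, which pairs classes of 1 library; DESeq2 1.42.0 was an alternative. P-values rest on a spread shared by the 4 classes over 3 libraries, which may be 1 culture each. In simulated pDC and cDC2 sums (11375 genes) the test found 88% of 2-fold and 44% of 1.5-fold changes. The simulation had a fixed spread and no other difference between classes or treatments. It changed only well-counted genes with a UMI in every sum, which leaves out Ldhb. These shares are therefore not the power of the test in the real sums.

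The 9 genes and the lists were chosen with earlier results of these data known. Named besides the 9 were up to 3 genes per list, class and treatment with the largest ratio past 1.5-fold, and the 3 most similar genes per member (of at least 50 CPM), except where a gene is not reported here. Hk3, Bsg, Mpc1, Pdk3, Hif1a, Vegfa, Slc16a10, Flt3, Zbtb46 and some class values of the others were named after their values were seen. Positions are from GENCODE M21, which matched 99.8% of gene IDs. Promoters are from RefSeq GRCm38.p6. Alternatives covered scaling, pseudocount, filters, gates, cycling cells and leaving out each library.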

Additional observations from a re-analysis of the deposited data

How the results depend on the processing

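The ratios of Slc2a1 and Slc16a3 at 50 µM stayed past 1.5-fold below control in cDC1, cDC2, pDC and progenitors under every alternative run. With a filter of 20 CPM, Slc2a1 was too low to count in cDC1 (18.6 and 4.52 CPM) and progenitors (19.4 and 6.22 CPM). With DON, a pseudocount of 20 CPM put Slc2a1 within 1.5-fold in all 4 classes (log2 ratios -0.43 to -0.48) and Slc16a3 in cDC2 (-0.56). No ratio past 1.5-fold changed direction, but ratios within it did: with no limit on the next class, Slc2a3 in cDC1 at 50 µM went from -0.05 to 1.69 and Slc16a1 there from -0.39 to 0.18, the cause of which was not tested. Of 1116 log2 ratios of single members under the alternatives, 1020 stayed within the counting interval of the reported value or within 0.1 of it. This number includes the changes of the filter on low values, which cannot move a ratio. Of 248 counts of members, 231 stayed within 1.5 times, and 501 of 544 called class differences stayed called. At 50 µM, members higher in cDC1 went from 0 to 1 with no limit on the next class and with a gate without 9 markers that differed between libraries in earlier results (Xcr1, Cadm1, Itgae, Cd209a, S100a4, Tnip3, Itgam, Sirpa and Ly6d). Members lower in cDC2 went from 2 to 4 with scaling by the median of ratios. Members higher in pDC went from 1 to 0 with no limit on the next class, that gate without 9 markers, without cycling cells, with a pseudocount or a filter of 20 CPM, with cells weighted alike, and with the next class held to fewer markers, an alternative chosen after seeing the data. With DON, members lower went from 3 to 1 in cDC1 with a pseudocount of 20 CPM, from 2 to 4 in cDC2 with a pseudocount of 1 CPM and to 0 with 20 CPM, and from 2 to 1 in progenitors with a gate on thinned UMIs and with a pseudocount or filter of 20 CPM, where members higher went from 0 to 1 with a pseudocount of 1 CPM. Members past the class test without the replicate block (classes are paired by library) were 1 in place of 3 for cDC1 against cDC2, 2 in place of 5 for pDC against cDC2, 4 in place of 7 for pDC against cDC1 and 5 in place of 8 for progenitors against pDC; without a filter on low counts the first was 5. Leaving out 1 library each gave 3 to 4 for cDC1 against cDC2, 5 to 6 for pDC against cDC2, 4 to 8 for pDC against cDC1, 6 to 9 for progenitors against cDC2, 3 to 6 for progenitors against cDC1 and 7 to 8 for progenitors against pDC. Not run for want of 50 cells were cDC2 gated without 9 markers (50, 40 and 32 cells) and progenitors without cycling cells (11, 32 and 9). Depth limits cDC1 at 50 µM most, where Slc2a1, Slc2a3 and Slc16a3 had 6 UMIs each.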
